A study of Mus musculus with 7 samples.

Results

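The sarcomere genes described here are 35 genes that encode light chains, thin-filament proteins, titin, M-band and Z-disc proteins and their regulators, with the myosin heavy chains left out. They were chosen by name, as rows of the gene table whose symbol equals one on a list. All 35 were found among the 23393 gene rows with a usable name, and all 35 had enough reads to be tested. RNA was sequenced from mouse hearts of 2 genotypes at 3 to 6 weeks of age, none of them treated. The 4 control mice were Ctla4+/+;Pdcd1-/-, and the 3 mice with ICI-myocarditis, a heart inflammation that models the toxicity of immune checkpoint inhibitors, were Ctla4+/-;Pdcd1-/-. Both groups therefore lacked Pdcd1, which encodes the checkpoint receptor PD-1, and the groups differed by the loss of 1 allele of Ctla4, which encodes a second T-cell checkpoint receptor. The labels call the tissue whole heart and the extraction protocol names the cardiac ventricle. They give no exact age, sex or litter for a single animal, so each mouse is 1 sample and the p-values measure only the spread between these samples.

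The sarcomere is the contractile unit of striated muscle. Myosin thick filaments pull on actin thin filaments, troponin and tropomyosin switch the thin filament on when calcium binds, titin spans from the Z-disc to the M-band as a spring, and Z-disc proteins anchor the thin filaments and connect neighbouring units. Several of these proteins have isoforms that mark the atrium, the ventricle, the fetal heart or skeletal muscle, and cardiac troponins T and I are measured in blood as signs of heart muscle injury.

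Each library held between 20901485 and 38980900 reads assigned to genes, and values below are normalized counts, that is, the reads of a gene after division by a library's size factor. Pdcd1 was at 2.5 to 244 normalized counts in the controls and 1096 to 1481 in the ICI-myocarditis hearts. Reads over the whole gene cannot check a deletion whose extent is not given in the sources used here. Ctla4 was at 29.2 to 113 in the controls and 251 to 373 in the ICI-myocarditis hearts. Control 2, which had the highest Pdcd1 and Ctla4 of the controls, was the lowest control for 30 of the 35 sarcomere genes. Control 4 lay on the other side, as the highest control for 31. ICI-myocarditis 3 was the lowest of its group for 25. Dixon's outlier test, run on 42 results in the 4 controls, marked 0 of them. With only 4 values and control 4 at the opposite extreme, it cannot decide whether control 2 was an ordinary control. For Pdcd1, control 2 was at 244 and controls 1, 3 and 4 at 9.07, 3.35 and 2.5. The T-cell gene Cd8a was at 572 in control 2 against 35.3, 42.4 and 22.5. Another T-cell gene, Cd4, differed less, at 92.5 against 72.6, 42.4 and 45. Results are given below with and without control 2 and ICI-myocarditis 3 where that changes a call.

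Of the 35 sarcomere genes, 2 fell in the ICI-myocarditis hearts and none rose, at an adjusted p below 0.05 in limma over all 15236 genes tested. The 2 were Myot, which encodes the Z-disc protein myotilin, and Mylk4, which encodes a myosin light chain kinase family member of heart and skeletal muscle. They are 5.71% of the members, and 15.7% of all genes tested were called, 4.00% as lower and 11.7% as higher. For 31 of the 35 (88.6%) the log2 fold change was below 0, against 51.9% of all genes tested, and for 28 of 35 when libraries were scaled by their totals. The median was -0.48 (range -2.70 to 1.58) against -0.02 over all genes. At an unadjusted p below 0.05 there were 6 members lower and 2 higher, where 12.4% and 17.7% of all genes tested were lower and higher. The 2 groups of libraries overlapped for 29 of the 35. All 3 ICI-myocarditis hearts were below all 4 controls for Mybpc3, Mylk4, Myot, Tnni3 and Trim55, which is 14.3% of the members beside 11.3% of all genes, and above all 4 for Synpo2l alone, beside 17.3% of all genes.

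**Figure D1:**
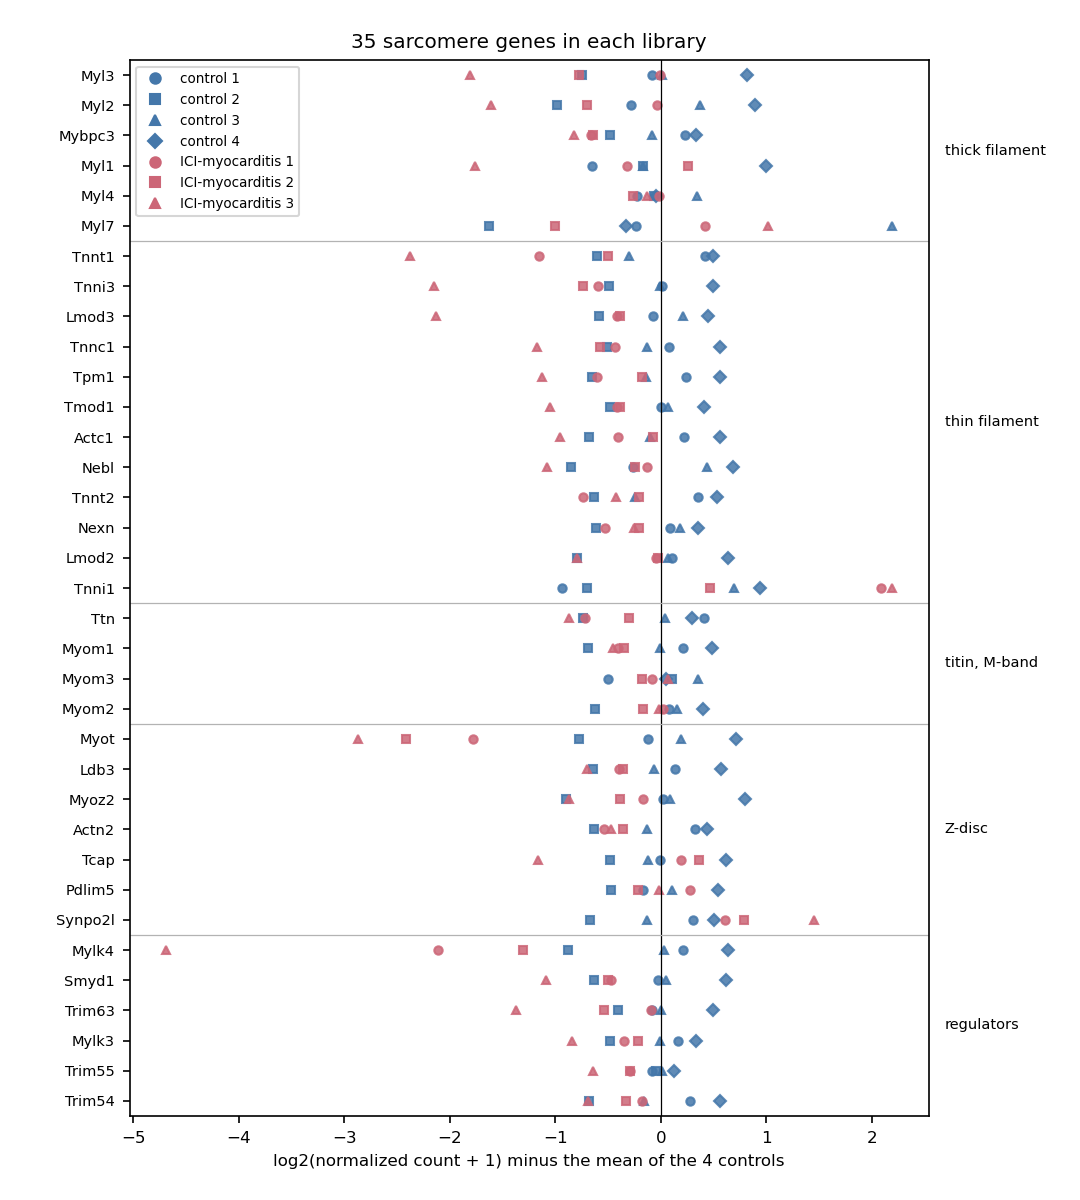
Level of each of the 35 sarcomere genes in each of the 7 libraries, as log2 of the normalized count plus 1 minus that gene's mean over the 4 controls, with genes grouped by role and 1 symbol per library (blue, control; red, ICI-myocarditis). Control 4 held the highest level of 29 genes and ICI-myocarditis 3 the lowest of 23, and Synpo2l and Tnni1 ran the other way.

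The sarcomere genes moved together from heart to heart within a group as well as between groups. Control 4 held the highest level among the controls for 31 of 35 genes and control 2 the lowest for 30. ICI-myocarditis 3 was the lowest of its group for 25 genes and the lowest of all 7 libraries for 23. Control 2 was above ICI-myocarditis 1 for only 9 of the 35 and above ICI-myocarditis 2 for 10, so it lay below these 2 hearts for most members. Taken over the 28 members with a mean of at least 1000 normalized counts, the median log2 distance from each gene's own mean was 0.318, -0.434, 0.188 and 0.743 in controls 1 to 4. It was -0.118, -0.148 and -0.67 in ICI-myocarditis 1 to 3. In bulk tissue, fewer heart muscle cells and less of these RNAs per cell cannot be told apart.

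Together the 35 genes took 12.7%, 8.15%, 11.6% and 12.3% of all reads in controls 1 to 4 and 8.18%, 9.61% and 6.76% in ICI-myocarditis 1 to 3. The mean was 11.2% ± 2.08 (SD, n = 4) in the controls and 8.19% ± 1.43 (SD, n = 3) in the ICI-myocarditis hearts. The difference of -3.01 percentage points gave a two-sided p of 0.114 in an exact permutation test, which with 35 ways to split 7 libraries can go no lower than 0.0286. Adjusted over the 7 measures tested this way, the exact permutation p was 0.2. Titin alone made up 52.4% to 62.5% of these reads in the controls and 51% to 59.2% in the ICI-myocarditis hearts. Without it the share was 3.57% to 5.84% in the controls and 2.76% to 4.01% in the ICI-myocarditis hearts, with the same exact permutation p of 0.114. The groups overlapped on both measures, through control 2.

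Levels of different genes can be compared only per length, here as normalized counts per kilobase of merged exon. On that scale the controls' means were led by Actc1 at 152221 per kilobase, Myl3 at 133392, Myl2 at 102092, Tnnc1 at 75469, Tnni3 at 72766 and Tnnt2 at 57789. These are the ventricular and cardiac forms of alpha-actin, the light chains and the troponins. Neighbours in this order did not separate beyond their spread, with Actc1 at 90504 to 214014 and Myl3 at 73456 to 218415 per kilobase across the controls. Ttn, whose merged exons span 113589 bases, came to 18065 per kilobase. The 6 lowest were Tnnt1 at 211 per kilobase, Myot at 200, Myl4 at 34.1, Myl7 at 28, Myom3 at 17.1 and Tnni1 at 6, most of them isoforms of atrium, fetal heart or skeletal muscle.

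Among the thick-filament genes, 0 of 6 passed the test, with a median log2 fold change of -0.66 (range -0.87 to 0.14). Mybpc3, which encodes cardiac myosin-binding protein C, a brake on the myosin heads, had the lowest p of them. It was at 164899, 101258, 133134 and 177956 normalized counts in controls 1 to 4 and 88954, 90228 and 79477 in ICI-myocarditis 1 to 3. The ICI-myocarditis hearts lay close together and below every control, control 2 included. Its log2 fold change was -0.71 (SE 0.332, adjusted p = 0.185 in limma), and it passed under 2 of 19 alternative settings, which were DESeq2 and limma-voom with quality weights. In the authors' deposited table, made from the same libraries, its log2 fold change is -0.74 with an adjusted p of 0.021. DESeq2 gave -0.74 here as well, so the deposited value is no separate support.

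The light chains stabilize the lever arm of myosin, and the regulatory ones tune its contraction when phosphorylated. Myl2, the ventricular regulatory light chain, was at 120466, 74381, 189597 and 272621 in the controls and 142587, 90318 and 48020 in the ICI-myocarditis hearts. Myl3, the ventricular essential light chain, was at 145651, 91453, 155260 and 271927 against 152757, 89811 and 43876. For both genes ICI-myocarditis 1 lay among the controls and ICI-myocarditis 3 far below every other heart. The log2 fold changes were -0.78 (SE 0.536, adjusted p = 0.368 in limma) for Myl2 and -0.87 (SE 0.515, adjusted p = 0.298 in limma) for Myl3.

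The atrial light chains were rare, and their groups overlapped. Myl4, the atrial essential light chain, was at 48.4, 54.3, 72.6 and 55.1 in the controls and 56.3, 47.1 and 52 in the ICI-myocarditis hearts. Myl7, the atrial regulatory light chain, was at 8.07, 2.47, 48 and 7.51 against 13.3, 4.35 and 20.6. Control 3 was the highest library for both. Their log2 fold changes were -0.14 (SE 0.299) and 0.14 (SE 0.881). The sign of Myl4 reversed when libraries were scaled by their totals (0.02), and that of Myl7 in edgeR (-0.39), DESeq2 and limma-voom. Myl1, a fast-skeletal essential light chain, was at 536 to 1685 in the controls and 249 to 1006 in the ICI-myocarditis hearts. Of 10 other atrial marker genes, 7 had enough reads to be tested, Bmp10 was at 0 in all 7 libraries and Sln reached at most 3.7. Of those tested, 1 rose, Dkk3, which encodes a secreted protein of the Dickkopf family, at 138, 141, 162 and 91.3 in the controls and 584, 891 and 2298 in the ICI-myocarditis hearts (log2 fold change 3.02, adjusted p = 0.00394 in limma). The other 6 had log2 fold changes below 0 and none passed. Of all genes tested, 11.7% were called higher and 51.9% were below 0. The summed level of the 10 was 3667 to 6631 in the controls and 3366 to 4663 in the ICI-myocarditis hearts, so the groups overlapped. Without Dkk3, left out after its values had been seen, the sum was 3505 to 6493 against 2366 to 3268, with no overlap. Since the only tested marker that rose was left out, this lower sum is no test of atrial markers. Kcna5 alone gave 3551 of the 6493 in control 1, and Sln, Bmp10 and Mybphl reached at most 10.1. Each of the 6 tested markers other than Dkk3 overlapped between the groups on its own.

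Of the 12 thin-filament genes, 0 passed the test and 11 had a log2 fold change below 0, beside 51.9% of all genes. Their median was -0.55 (range -1.35 to 1.58). Cardiac troponin I, Tnni3, the inhibitory subunit of the troponin complex, was at 94840, 67130, 93586 and 133016 normalized counts in controls 1 to 4. It was at 62326, 56426 and 21272 in ICI-myocarditis 1 to 3. All 3 lay below all controls, ICI-myocarditis 1 only just below control 2. The log2 fold change was -1.16 (SE 0.443, adjusted p = 0.112 in limma), and without ICI-myocarditis 3 it was -0.67 with an adjusted p of 0.412 in limma. DESeq2 was the 1 alternative of 19 under which it passed, at an adjusted p of 0.0361.

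Tnni1, the slow-skeletal troponin I that precedes Tnni3 in the developing heart, was the member with the largest positive value. It was at 4.03, 4.93, 14.5 and 17.5 in the controls and 39.9, 12.3 and 42.8 in the ICI-myocarditis hearts. ICI-myocarditis 2 lay inside the control range and the other 2 above it. Its log2 fold change was 1.58 (SE 0.653, adjusted p = 0.14 in limma), understated at these low levels by the added pseudocount of 1, and it passed under none of 18 alternatives.

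Troponin T ties the complex to tropomyosin. The cardiac form, Tnnt2, was at 101591, 51437, 67335 and 115506 in the controls and 47981, 69104 and 59377 in the ICI-myocarditis hearts, with a log2 fold change of -0.46 (SE 0.37, adjusted p = 0.456 in limma). The slow-skeletal form, Tnnt1, was at 408, 201, 247 and 430 against 137, 215 and 58.1. ICI-myocarditis 2 lay just above control 2 and the other 2 below all controls. Its log2 fold change was -1.35 (SE 0.455, adjusted p = 0.0781 in limma). The call depended on single libraries, since without control 2 the adjusted p was 0.0399 in limma, without ICI-myocarditis 2 it was 0.0474, and without ICI-myocarditis 3 the log2 fold change was -0.83 with an adjusted p of 0.27. The remaining troponin subunit, the calcium sensor Tnnc1, was at 36760 to 77561 in the controls and 23233 to 38858 in the ICI-myocarditis hearts, with a log2 fold change of -0.73 (SE 0.349, adjusted p = 0.198 in limma).

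In mouse build GRCm38 the genes of these subunits lie in neighbouring pairs. Tnnt1 spans chr7:4504570-4516382 and Tnni3 chr7:4518305-4524229, both on the minus strand and 1922 bases apart. Tnni1 spans chr1:135779434-135810989 and Tnnt2 chr1:135836354-135852260, both on the plus strand and 25364 bases apart. Each pair thus holds a cardiac form and a slow-skeletal form of the other subunit. In the pair on chromosome 7 both genes had negative log2 fold changes, and in the pair on chromosome 1 Tnni1 was at 1.58 and Tnnt2 at -0.46.

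Cardiac alpha-actin, Actc1, the main actin of the thin filament in the adult heart, was at 273903, 146435, 218558 and 346275 in the controls and 176987, 222764 and 121195 in the ICI-myocarditis hearts. The log2 fold change was -0.48 (SE 0.417, adjusted p = 0.49 in limma). Skeletal alpha-actin, Acta1, is no member and encodes a protein nearly identical to that of Actc1. It was at 13902, 4245, 9738 and 12057 against 6497, 8111 and 11992. Whether any reads were shared between the 2 genes was not tested. Tpm1, which encodes the main tropomyosin of the heart, was at 99252 to 229550 in the controls and 71554 to 137982 in the ICI-myocarditis hearts. The genes for thin-filament capping, assembly and actin binding that follow all overlapped between groups. Tmod1 caps the pointed end (log2 fold change -0.62), Lmod2 and Lmod3 promote filament assembly and elongation (-0.29 and -0.98), and the actin-binding proteins Nebl and Nexn had -0.48 and -0.33. Of these, Lmod3 was at 1780 to 3638 in the controls and at 2003, 2039 and 607 in the ICI-myocarditis hearts, so ICI-myocarditis 1 and 2 were inside the control range and ICI-myocarditis 3 was far below it.

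The titin and M-band genes gave the smallest differences, with 0 of 4 called and a median log2 fold change of -0.24 (range -0.63 to -0.06). Ttn, which encodes the giant spring protein of the sarcomere, was at 2608197, 1181113, 2014332 and 2404380 normalized counts in the controls and 1192185, 1592870 and 1072617 in the ICI-myocarditis hearts. Control 2 lay between ICI-myocarditis 1 and 3. The log2 fold change was -0.63 (SE 0.467, adjusted p = 0.407 in limma). The myomesins cross-link thick filaments at the M-band. Myom1 was at 39867 to 90051 in the controls and 46770 to 50471 in the ICI-myocarditis hearts. Myom2, the isoform of the adult heart and fast muscle, was at 37656 to 76389 against 51501 to 58990, and the ICI-myocarditis hearts lay inside the control range. Myom3 was rare, at 65.5 to 119 against 81.9 to 97.8. The signs of Myom2 (-0.06) and Myom3 (-0.07) reversed to 0.10 and 0.09 when libraries were scaled by their totals.

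Of the 7 Z-disc genes, 1 fell (14.3%, beside 4.00% of all genes), and log2 fold changes had a median of -0.46 (range -2.35 to 0.94). Myot encodes myotilin, which binds alpha-actinin and filamin and cross-links actin. It was at 380, 241, 472 and 678 normalized counts in controls 1 to 4 and 120, 76.8 and 55.8 in ICI-myocarditis 1 to 3. The highest ICI-myocarditis heart was well below the lowest control. The mean went from 443 ± 184 (SD, n = 4) to 84.1 ± 32.6 (SD, n = 3), a 5.26-fold difference of means. The log2 fold change in limma, a difference of mean log2 values, was -2.35 (SE 0.386, adjusted p = 0.00572), or 5.11-fold lower. Myot was the 1 member that passed under all 19 alternative settings of the comparison, including each of the 7 in which a library was left out, with adjusted p-values from 1.96e-07 in DESeq2 to 0.0258 in limma. At 200 normalized counts per kilobase it was the least abundant of the 7 Z-disc genes in the control hearts, with Synpo2l next at 970.

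Synpo2l encodes a heart-enriched actin-associated protein of the Z-disc and went the other way, though it did not pass the test. It was at 5284, 2684, 3912 and 6087 in the controls and 6512, 7380 and 11693 in the ICI-myocarditis hearts. All 3 lay above all controls, and ICI-myocarditis 3, which was lowest for most members, was the highest of all for this one. Its log2 fold change was 0.94 (SE 0.333, adjusted p = 0.0885 in limma). It passed under 3 of 19 alternatives, which were scaling by library totals, DESeq2 and limma-voom. In the authors' deposited table, made from the same libraries and close to DESeq2 here, its adjusted p is 0.0419. Without control 2 and ICI-myocarditis 3 together it was 0.47 with an adjusted p of 0.325 in limma.

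The other 5 Z-disc genes overlapped between groups. Actn2, the alpha-actinin that cross-links thin filaments, was at 41428 to 87114 in the controls and 44064 to 49972 in the ICI-myocarditis hearts. Log2 fold changes were -0.46 for Actn2, -0.49 for Ldb3 and -0.48 for Myoz2, which encodes a calcineurin-binding protein. They were -0.21 for Tcap, the titin cap, and 0.01 for Pdlim5, which like Ldb3 encodes a PDZ and LIM domain adaptor. The sign for Tcap turned to 0.27 without ICI-myocarditis 3 and 0.18 in limma-voom, and the sign for Pdlim5 was -0.02 in edgeR and in DESeq2.

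Of the 6 regulators, 1 fell (16.7%, beside 4.00% of all genes), and all 6 had a log2 fold change below 0, beside 51.9% of all genes. Their median was -0.57 (range -2.70 to -0.40). Mylk4 was at 10400, 4881, 9189 and 13977 normalized counts in controls 1 to 4 and 2079, 3637 and 347 in ICI-myocarditis 1 to 3. The groups did not overlap, and ICI-myocarditis 3 stood far below the other 2. The mean went from 9612 ± 3752 (SD, n = 4) to 2021 ± 1646 (SD, n = 3), a 4.76-fold difference of means. The log2 fold change in limma, a difference of mean log2 values in which ICI-myocarditis 3 at 347 weighs more, was -2.70 (SE 0.709, adjusted p = 0.0321), or 6.51-fold lower, the largest of the 35 in size. The direction held under all 19 alternatives (-3.40 to -1.71), and the call under 12. It was lost in edgeR (adjusted p = 0.0607) and in limma without the trend and robust options (adjusted p = 0.0502). It was also lost, in limma, without control 1 (adjusted p = 0.0876), control 3 (0.0843), control 4 (0.0625), ICI-myocarditis 1 (0.0505) and ICI-myocarditis 3 (0.0534). Without ICI-myocarditis 3 the log2 fold change was -1.71. Mylk3, the heart's own myosin light chain kinase that phosphorylates the regulatory light chain, was at 14953 to 26278 against 11601 to 17938, a log2 fold change of -0.47 (SE 0.294, adjusted p = 0.324 in limma).

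Trim54, Trim55 and Trim63 encode the muscle RING-finger ubiquitin ligases, which bind titin and tag muscle proteins for breakdown. Trim55 was at 2441, 2500, 2607 and 2828 in the controls and 2117, 2109 and 1656 in the ICI-myocarditis hearts, and it was the member with the smallest standard error. The groups did not overlap, and the log2 fold change of -0.41 (SE 0.179) had an adjusted p of 0.157 in limma. Trim63, a marker of muscle atrophy, was at 3822 to 7124 against 1956 to 4741 (log2 fold change -0.67), and Trim54 at 2007 to 4733 against 1987 to 2845 (-0.40). Smyd1, a muscle methyltransferase needed for sarcomere assembly, was at 9872 to 23602 against 7201 to 11057, a log2 fold change of -0.69 (SE 0.331, adjusted p = 0.2 in limma).

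**Figure D2:**
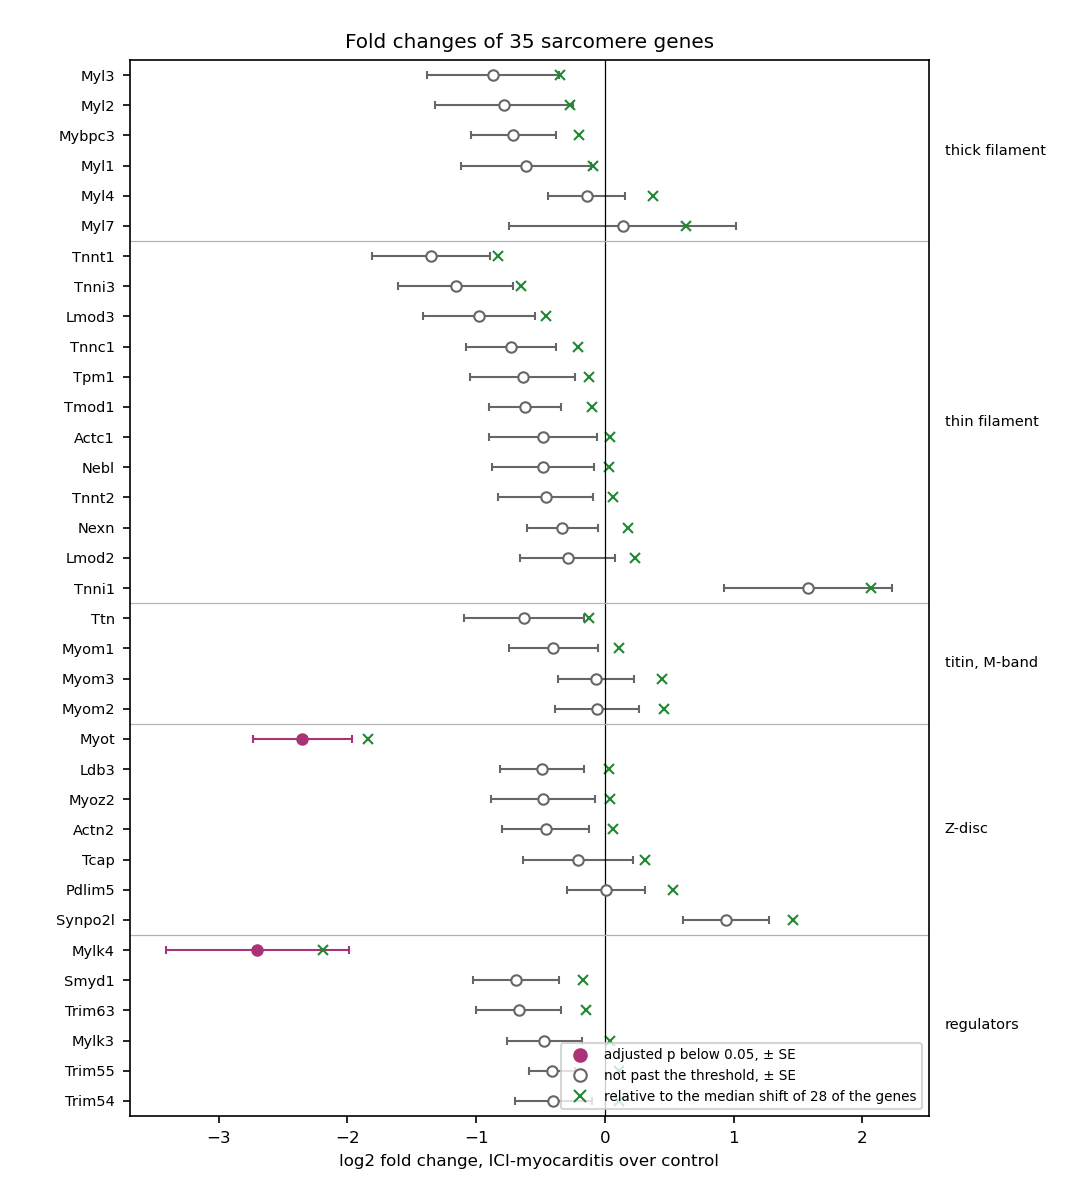
Log2 fold change of ICI-myocarditis against control for the 35 sarcomere genes, as circles (filled where called) with bars for 1 standard error on each side, and the same relative to the median shift of 28 of the genes as crosses, with genes grouped by role. Myot at -2.35 and Mylk4 at -2.70 are the 2 called genes, and 31 of 35 circles lie below 0.

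The upstream sequences of Mylk4, Synpo2l and Mybpc3 are shown because these 3 genes, each with non-overlapping groups, share a match to the MEF2 site, the motif of a muscle transcription factor family, although 2 of them were lower and 1 was higher in the ICI-myocarditis hearts. Of the other 3 genes with non-overlapping groups, Tnni3 had no match in its window, and Myot and Trim55 had no window to search. Each window holds the 250 bases before an annotated RefSeq start in build GRCm38.p6, written 5′ to 3′ on the gene's strand, with the match in capitals. The windows are chr13:32783965-32784214 on the minus strand for Mylk4, chr14:20668355-20668604 and chr14:20664575-20664824 on the minus strand for 2 starts of Synpo2l, and chr2:91117894-91118143 on the plus strand for Mybpc3.
Mylk4: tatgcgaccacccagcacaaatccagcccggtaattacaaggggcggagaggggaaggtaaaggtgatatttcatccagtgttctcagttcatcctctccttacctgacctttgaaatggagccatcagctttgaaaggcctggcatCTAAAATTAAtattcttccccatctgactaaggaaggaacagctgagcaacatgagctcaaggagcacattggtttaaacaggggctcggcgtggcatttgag
Synpo2l, upstream start: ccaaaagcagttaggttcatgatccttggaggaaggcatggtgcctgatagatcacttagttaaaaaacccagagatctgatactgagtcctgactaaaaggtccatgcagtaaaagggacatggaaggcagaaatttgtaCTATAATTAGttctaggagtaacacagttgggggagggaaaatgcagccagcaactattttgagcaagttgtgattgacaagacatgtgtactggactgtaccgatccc
Synpo2l, downstream start: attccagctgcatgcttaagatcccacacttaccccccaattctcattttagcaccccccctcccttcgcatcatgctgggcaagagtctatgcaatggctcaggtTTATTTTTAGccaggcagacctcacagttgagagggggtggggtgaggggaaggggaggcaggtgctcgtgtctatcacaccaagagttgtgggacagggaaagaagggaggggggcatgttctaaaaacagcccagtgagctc
Mybpc3: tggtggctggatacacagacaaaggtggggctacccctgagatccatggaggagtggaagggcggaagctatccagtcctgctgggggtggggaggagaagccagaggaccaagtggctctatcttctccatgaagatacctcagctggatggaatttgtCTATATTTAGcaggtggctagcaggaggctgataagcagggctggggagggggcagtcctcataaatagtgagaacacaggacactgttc
Counted from the start site, the matches begin at -103 in Mylk4, -109 and -144 in Synpo2l and -90 in Mybpc3. A start site was found for 29 of the 35 members, with 39 windows in all. On either strand, a MEF2 match lay in 17.9% of these windows and in 2.92% of the 32851 windows of all genes. The members with one were Mybpc3, Mylk4, Myom3, Myoz2, Synpo2l and Ttn, whose log2 fold changes ran from -2.70 to 0.94. A CArG box, the motif of serum response factor, also lay in 17.9% of the members' windows and in 1.47% of all windows. The letters CATTCC lay in 28.2% and 12.6%, AGATAA in 15.4% and 9.99%, and TATAAA in 15.4% and 12.4%. Some of these motifs can overlap each other, and a match describes the letters only.

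Because the members moved together, each gene was also compared with the rest of the sarcomere, by scaling each library to the median distance of the 28 abundant members. This scale was added after the values had been seen. With it, the median SD of log2 values over the 4 controls went from 0.514 to 0.167, and it was smaller for 32 of the 35 genes. Part of that follows from the scaling itself, which is built on 28 of them. In the ICI-myocarditis hearts the median SD went from 0.394 to 0.333. On this scale the median log2 fold change was 0.04 over the members and 0.49 over all genes, so values are differences from the sarcomere and not from the average gene. In all, 9.93% of 15264 genes were called, 0.400% as lower and 9.53% as higher. Of the 35 members 2 were lower, Mylk4 and Myot, and 1 was higher, Synpo2l.

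Relative to the other members, Mylk4 was at 8341, 6592, 8063 and 8352 in the controls and 2256, 4030 and 552 in the ICI-myocarditis hearts. The controls were close to each other and the ICI-myocarditis hearts spread widely below them. The log2 fold change was -2.19 (SE 0.554, adjusted p = 0.0365 in limma). Myot was at 305, 325, 414 and 405 against 130, 85.1 and 88.8, a log2 fold change of -1.84 (SE 0.345, adjusted p = 0.0174 in limma). Synpo2l was at 4238, 3625, 3432 and 3637 against 7067, 8177 and 18608, a log2 fold change of 1.46 (SE 0.333, adjusted p = 0.0266 in limma). Every ICI-myocarditis heart was above the controls for Synpo2l by a wide margin, and ICI-myocarditis 3 by the widest. These 3 calls also held without control 2 and ICI-myocarditis 3 together, where Synpo2l was at 1.01 (adjusted p = 0.017 in limma). They did not all hold when 1 library was left out. All 3 were lost without control 1, control 3, ICI-myocarditis 2 or ICI-myocarditis 3, with adjusted p-values in limma of 0.0587 to 0.113 over the 3 genes. Mylk4 was also lost without control 4 (0.051) and ICI-myocarditis 1 (0.065). Without ICI-myocarditis 3, Mylk4 was at -1.36 and Synpo2l at 1.04.

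On the same relative scale the groups did not overlap for Tnni3 and Smyd1, both lower, and for Tnni1 and Myom2, both higher, none of which passed the test. With Mylk4, Myot and Synpo2l this makes 4 lower and 3 higher, beside 3.05% and 20.9% of all genes. Tnni3 was at 76064, 90660, 82124 and 79489 against 67636, 62520 and 33853, a relative log2 fold change of -0.65 (SE 0.249, adjusted p = 0.133 in limma). Mybpc3, which separated the groups in normalized counts, overlapped here with a relative log2 fold change of -0.20.

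**Figure D3:**
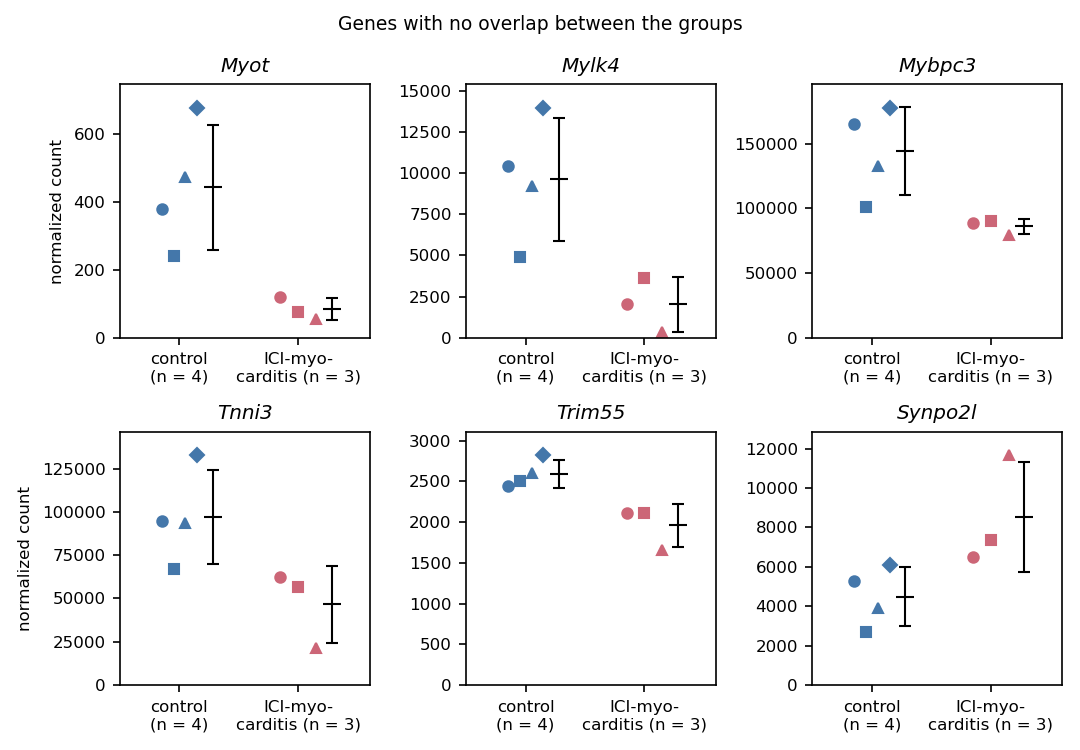
Normalized counts, on a linear axis from 0, of the 6 sarcomere genes whose groups do not overlap, with a point for each of 4 controls (blue) and 3 ICI-myocarditis hearts (red) and each group's mean with bars of 1 SD. Myot runs from 241 to 678 in the controls and from 55.8 to 120 in ICI-myocarditis, and Synpo2l from 2684 to 6087 and from 6512 to 11693.

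Isoforms were also compared as ratios within a library, which the scaling of libraries enters only through the added pseudocount. For 5 pairs the log2 ratio of normalized counts plus 1, not corrected for length, was put to the exact permutation test, two-sided and adjusted over 7 measures. Slow-skeletal against cardiac troponin I, Tnni1 to Tnni3, was at -14.20, -13.47, -12.56 and -12.81 in the controls and -10.57, -12.05 and -8.92 in the ICI-myocarditis hearts. All 3 were higher than all controls. The difference was 2.74, with an exact permutation p of 0.0286, the smallest this design can give, and 0.1 after adjustment. Over 7 measures, the adjusted value can fall below 0.05 only if most of them reach that smallest p. That this ratio did not pass is therefore no sign that it was unchanged. The difference rested on Tnni1 levels between 4.03 and 42.8 normalized counts, and was 2.25 with a pseudocount of 8.

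Slow-skeletal against cardiac troponin T, Tnnt1 to Tnnt2, went in the opposite direction. The 4 controls were within a narrow band, at -7.96, -7.99, -8.09 and -8.06 (SD 0.0613), although Tnnt1 and Tnnt2 each varied widely among them. The ICI-myocarditis hearts were at -8.44, -8.32 and -9.97, all below. The difference was -0.89, again with an exact permutation p of 0.0286 and 0.1 after adjustment, under the same limit. Without ICI-myocarditis 3 the difference was -0.36.

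The other 3 pairs overlapped. Atrial against ventricular light chains gave a difference of 0.73 for Myl4 to Myl3 (exact permutation p = 0.343) and 0.93 for Myl7 to Myl2 (exact permutation p = 0.429). Skeletal against cardiac alpha-actin, Acta1 to Actc1, gave 0.39 (exact permutation p = 0.486) and -0.09 without ICI-myocarditis 3. For all 3 pairs ICI-myocarditis 3 held the highest ratio of all 7 hearts.

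**Figure D4:**
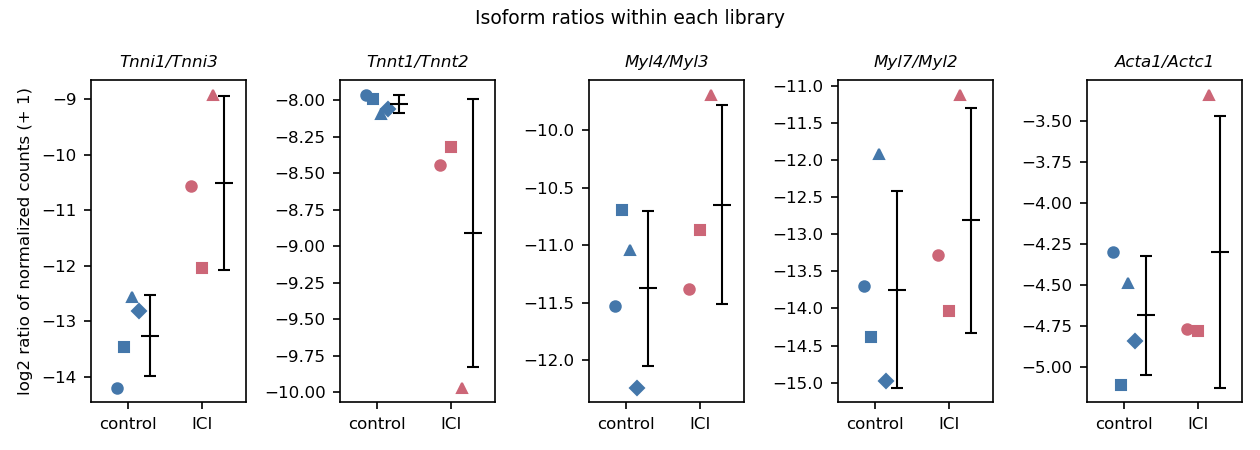
Log2 ratio of normalized counts for 5 isoform pairs in each library, 4 controls (blue) and 3 ICI-myocarditis hearts (red, ICI), with each group's mean and bars of 1 SD. The groups separate for Tnni1 to Tnni3, which is higher by 2.74 in ICI-myocarditis, and for Tnnt1 to Tnnt2, where the difference is -0.89.

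Among 38 other sarcomere and muscle filament genes, 33 could be tested, and 5 fell and 2 rose. Their median log2 fold change was -0.42. Called genes were 21.2% of those tested, beside 15.7% of all genes. Kbtbd13, a ubiquitin ligase adaptor of muscle, was at 98.8, 117, 118 and 121 in the controls and 30.7, 58 and 19.1 in the ICI-myocarditis hearts, a log2 fold change of -1.77 (SE 0.385, adjusted p = 0.0153 in limma). The call was lost without control 3 (adjusted p = 0.0531 in limma) and ICI-myocarditis 3 (0.0569). Unc45b, the chaperone that folds myosin, was at 6204 to 9255 against 2343 to 4635, a log2 fold change of -1.08 (adjusted p = 0.0315 in limma). It passed under 12 of 19 alternatives and was lost, in limma, without control 1, 3 or 4 and without ICI-myocarditis 1 or 3, with adjusted p-values of 0.0575 to 0.132.

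The tropomyosins Tpm2 and Tpm3 moved in opposite directions. Tpm2 was at 1072, 913, 763 and 677 in the controls and 424, 462 and 481 in the ICI-myocarditis hearts, a log2 fold change of -0.89 (SE 0.206, adjusted p = 0.0195 in limma). Tpm3, which non-muscle cells also express, was at 2592, 3676, 2375 and 2146 against 4387, 4811 and 6784, a log2 fold change of 0.99 (SE 0.252, adjusted p = 0.0291 in limma). Control 2, the lowest control for most sarcomere genes, was the highest control for Tpm3. Tpm2 lost its call without any 1 of the ICI-myocarditis hearts (adjusted p = 0.0582 to 0.0673 in limma) and when scaled by library totals. Tpm3 lost it without control 1, 3 or 4 and without ICI-myocarditis 2 or 3 (adjusted p = 0.0591 to 0.128 in limma).

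Lmod1, the leiomodin of smooth muscle (log2 fold change -1.46, adjusted p = 0.0239 in limma), and Synm, an intermediate filament protein (609 to 1030 normalized counts against 313 to 530, adjusted p = 0.0282 in limma), also fell. Without control 1 or 3 or ICI-myocarditis 1 or 2, both lost their calls, with adjusted p-values of 0.0595 to 0.0958 in limma, and they also lost them when scaled by library totals. Control 4, the highest control for most sarcomere genes, was the lowest control for Lmod1, Synm and Tpm2 (138, 609 and 677). For Kbtbd13 and Unc45b it was the highest control. Lmod1 is also on the list of smooth muscle markers read below. Tnnt3, the fast-skeletal troponin T, rose (log2 fold change 2.18, adjusted p = 0.045 in limma). It was rare, at 28.2, 25.9, 8.93 and 6.26 normalized counts in the controls and 37.9, 66.7 and 129 in the ICI-myocarditis hearts. It passed under 8 of 18 alternatives and was lost without control 1, 3 or 4 and without ICI-myocarditis 2 or 3, with adjusted p-values of 0.0522 to 0.204 in limma. Unc45b, Tpm3, Synm and Tnnt3 were named after their values had been seen.

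Markers of other cells moved with the groups. All 14 leukocyte markers found in the table rose, and their summed level was 11231 to 21922 normalized counts in the controls and 57878 to 90734 in the ICI-myocarditis hearts. Among the controls it was highest in control 2, and among the ICI-myocarditis hearts in ICI-myocarditis 3. These hearts were lowest in their groups for most sarcomere genes. The rest of the order did not match. Control 2, at 21922, had less than ICI-myocarditis 1 and 2 (64241 and 57878). Its median sarcomere shift was nevertheless lower, at -0.434 against -0.118 and -0.148. Control 1 had the lowest leukocyte sum, 11231, whereas control 4 had the highest sarcomere shift, 0.743. Of 10 fibroblast markers 5 rose (summed level 59311 to 89910 against 152612 to 213652). Of 10 endothelial markers 5 fell (34354 to 88209 against 25331 to 32808), and of 8 smooth muscle markers 3 fell (18458 to 31609 against 11350 to 17046). Over all genes tested, 4.00% were called lower and 11.7% higher. None of the genes of these 4 lists was at 0 in every library. Their part in the sarcomere results was not tested.

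Of 18 heart muscle genes outside the sarcomere 3 fell, or 16.7% beside 4.00% of all genes, and their median was -0.90 on the log2 scale. They were Hrc, a calcium-binding protein of the sarcoplasmic reticulum (-2.02, adjusted p = 0.0212 in limma), and the creatine kinases Ckm (-1.68, adjusted p = 0.0374) and Ckmt2 (-1.37, adjusted p = 0.0427). Hrc lost its call without control 1, control 3 or ICI-myocarditis 3 (adjusted p = 0.0621 to 0.0702 in limma). Ckm lost it without any 1 library other than control 2 (0.0503 to 0.154), and Ckmt2 without control 1, 3 or 4 or ICI-myocarditis 2 or 3 (0.074 to 0.168). Their summed level was 762693 to 2225542 in the controls and 344387 to 906313 in the ICI-myocarditis hearts, with control 2 again the lowest control and ICI-myocarditis 3 the lowest heart. The difference between this median and that of the sarcomere genes, -0.48, was not tested.

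Because several members are also expressed in skeletal muscle, 22 other skeletal muscle markers were read. Of these 12 could be tested, 1 fell (Cacna1s, -1.30, adjusted p = 0.0265 in limma) and 2 rose (Tnnt3, given above, and Ryr1 at 1.89, adjusted p = 0.0462 in limma). Over all genes tested, 4.00% were called lower and 11.7% higher. The call of Cacna1s was lost without any 1 library other than control 2 (adjusted p = 0.0517 to 0.0972 in limma). That of Ryr1 was lost without control 3, control 4 or any 1 of the ICI-myocarditis hearts (0.077 to 0.171). Myod1 was at 0 in every library. Myh4 was at 87.7 normalized counts in control 1 and at most 8.76 in any other heart. The summed level was 2472 to 3484 in the controls and 2162 to 3526 in the ICI-myocarditis hearts, so the groups overlapped.

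**Figure D5:**
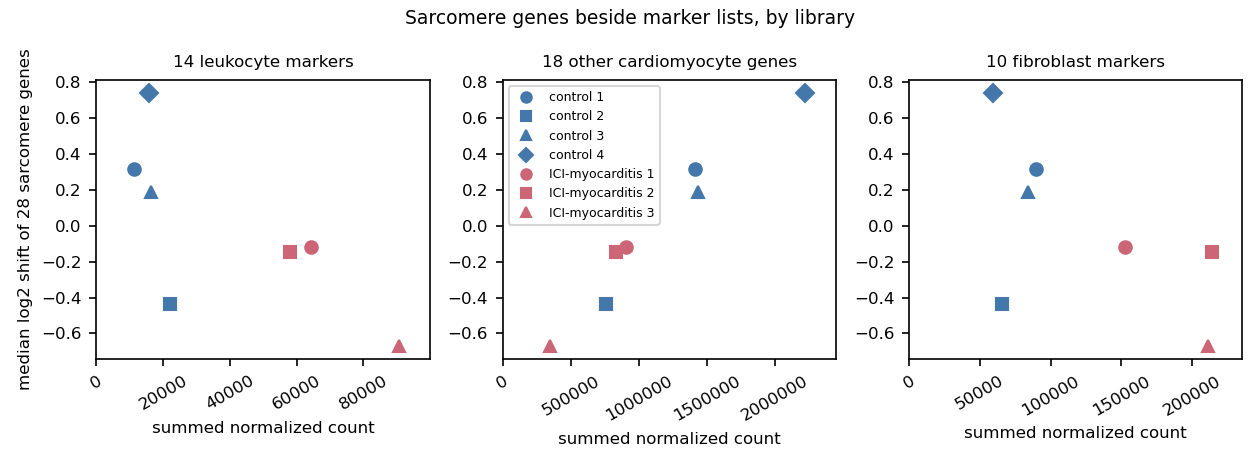
Median log2 distance of the 28 abundant sarcomere genes from their means in each library (vertical), against the summed normalized count (horizontal) of leukocyte markers, other heart muscle genes and fibroblast markers, with 1 symbol per library (blue, control; red, ICI-myocarditis). Control 2 at -0.434 and ICI-myocarditis 3 at -0.67 have the highest leukocyte sums of their groups, 21922 and 90734. ICI-myocarditis 1 and 2 have higher leukocyte sums than control 2, 64241 and 57878, and higher sarcomere values, -0.118 and -0.148.

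In the authors' deposited table of this comparison, 5 of the 35 members are lower and 1 is higher at an adjusted p below 0.05, beside 7.35% lower and 12.9% higher of 16880 genes with a value. The lower ones are Myot (2.21e-07), Mylk4 (0.00221), Mybpc3 (0.021), Tnnt1 (0.0388) and Tnni3 (0.0404), and the higher one is Synpo2l. Both calls of limma are among them. The deposited table rests on the same 7 libraries. DESeq2 on the recovered reads also gave 5 members lower and 1 higher, so the 2 are not separate support.

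Exons of 8 members overlap those of another gene in the annotation. The longest overlap is 1287 bases between Tmod1 and Tstd2 on the opposite strand, and Tnni3 shares 86 bases with Dnaaf3 on the same strand. The library kit keeps the strand, and whether counting used it is not given in the sources used here. Among the genes named most above, Myot, Mylk4, Synpo2l, Mybpc3 and Tnnt1 have no such overlap. In build GRCm38, Mylk4 lies at chr13:32700834-32783954 on the minus strand, Synpo2l at chr14:20658946-20668354 on the minus strand and Mybpc3 at chr2:91118144-91136516 on the plus strand, and values are counts over whole genes.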

How the data were processed

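RNA from 7 mouse hearts, 4 control and 3 ICI-myocarditis, was sequenced. Per the submitters' processing notes, reads were aligned with STAR 2.7.3 to GRCm38. The counting program, annotation and strand setting are not given in the sources used here. The per-library values were deposited as normalized counts (a signal in which read counts were divided by 1 size factor per library), a reading taken from the values: multiples of 1 step per library gave whole reads for 100% of values within a tolerance of 0.1. The step of control 1, 1.008, is near 1, so its low counts are close to whole numbers even before division. Only higher values, such as Myl4 at 48.4, can check it. The authors also deposited the log2 fold change, its statistic (a score) and p-values of their own comparison.

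Of 23420 rows, 27 with date-like or repeated names, holding 0.143% of reads, were left out. Genes reaching 10 normalized counts in 3 or more libraries entered limma 3.58.1 (R 4.3.3, trend and robust options) on log2(normalized count + 1), group only, with Benjamini-Hochberg adjustment over 15236 genes and a threshold of 0.05, so fold changes of low genes are understated. Alternatives were other scalings, pseudocounts and filters, edgeR 4.0.16 and DESeq2 1.42.0 on the recovered reads, limma-voom, a replicate block and each library left out. Isoform ratios and read shares had an exact permutation test. The limma, edgeR, DESeq2 and limma-voom fits were checked on simulated data in which each gene was drawn independently. The permutation test and the comparison relative to the members were not checked this way. The comparison relative to the members and the fit without control 2 and ICI-myocarditis 3 were chosen after values were seen. So were the atrial sum without Dkk3 and some gene names, as marked. All members are named, with full values for those called, the isoform pairs, Ttn and those nearest the threshold, and from other lists up to 3 called genes by p. The members and lists were chosen with earlier results of these data known. For the 28 members with a mean of at least 1000 normalized counts, the median SD of log2 values was 0.502 in the controls and 0.368 in the ICI-myocarditis hearts. How much of it comes from sequencing depth was not tested. Exon lengths and overlaps come from the GRCm38 annotation, and promoters from RefSeq GRCm38.p6, which matched 29 of 35 members.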

Additional observations from a re-analysis of the deposited data

How the results depend on the processing

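The number of sarcomere genes called lower, 2 at first, was 1 in edgeR, 5 in DESeq2, 3 in limma-voom, 1 in limma without trend and robust options, and 1 to 3 when a library was left out. The number called higher, 0 at first, was 1 when scaled by library totals, 1 in DESeq2, 1 in limma-voom, and 0 in each fit without 1 library. Over all genes the count of 2392 became 3998 in limma-voom, 983 without ICI-myocarditis 3 and 3333 without control 2. Scaling by library totals moved the median of all genes from -0.02 to 0.14 and that of the members from -0.48 to -0.32, and calls in the lower direction went from 25.5% to 15.7% of all calls with library totals, 37.2% with DESeq2 and 37.9% with limma-voom. The members' median was -0.70 to -0.30 with a library left out. Relative to the members, 0 to 2 were lower and 0 to 1 higher with a library left out. Differences of ratios ran from 1.95 to 3.51 for Tnni1 to Tnni3, -1.18 to -0.36 for Tnnt1 to Tnnt2, 0.25 to 1.1 for Myl4 to Myl3, 0.08 to 1.54 for Myl7 to Myl2 and -0.09 to 0.63 for Acta1 to Actc1. The difference in share of reads was -4.02 to -2.29 percentage points, and -1.57 to -0.77 without titin.

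Signs of genes near 0 reversed. Library totals gave 0.02 for Myl4, 0.10 for Myom2, 0.09 for Myom3 and 0.07 for Acta1. Myl7 and Pdlim5 were at -0.39 and -0.02 in edgeR, -0.38 and -0.02 in DESeq2, and -1.53 and -0.15 in limma-voom, where Myl1 was at 0.00 and Tcap at 0.18. Without control 2 and ICI-myocarditis 3, Pdlim5 was at -0.13 and Tcap at 0.11. With a library left out, Pdlim5 ranged from -0.14 to 0.20, Acta1 from -0.46 to 0.11, Myl7 from -0.40 to 0.72, Myom3 from -0.23 to 0.05, Myom2 from -0.27 to 0.07 and Tcap from -0.49 to 0.27. The cause was not tested.

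Same-numbered hearts did not deviate together (r = -0.271, -0.206 and -0.078). Hearts with different numbers ran from -0.477 to 0.451, so these few values cannot decide whether the numbers pair them. With a replicate block on 6 libraries, 1757 genes were called, members were 2 lower and 0 higher, their median was -0.30, Myom2 was at 0.07 and Acta1 at 0.05.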
